A study of Homo sapiens with 12 samples.

Results

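The APOBEC3 genes encode cytidine deaminases, and all 7 of the human family were measured here (APOBEC3A, APOBEC3B, APOBEC3C, APOBEC3D, APOBEC3F, APOBEC3G and APOBEC3H). They were chosen by symbol, with earlier results of these data known, and make up 7 of the 4918 genes analysed. The RNA came from A375, an established human melanoma cell line, in 4 groups of 3 samples each: control cells, cells given SB-3CT, cells given interferon gamma (IFNγ), and cells given both, for 24 h. SB-3CT is a small-molecule inhibitor of the gelatinases MMP2 and MMP9, and IFNγ is a cytokine of T cells and NK cells. The study asked which RNAs change with SB-3CT in A375 cells, alone or under IFNγ. The labels call the controls untreated, while the treatment protocol speaks of vehicle, so control cells with and without solvent cannot be told apart here. All 12 samples come from this 1 cell line, and the doses used on these samples are not given in the sources used here. The labels do not say that the 3 samples of a group were separate cultures, so the p-values measure only the spread between these samples, which may be technical.

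APOBEC3 enzymes turn cytosine into uracil in single-stranded DNA. In infected cells this damages the DNA copies of retroviruses and other viruses, and several members, APOBEC3G and APOBEC3F above all, are packaged into HIV particles unless the viral Vif protein removes them. In tumours, APOBEC3A and APOBEC3B are the members most often tied to C-to-T and C-to-G mutations in the cell's own genome. Some of the genes are known to be induced by interferons, and APOBEC3B is also known to be expressed in dividing cancer cells.

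The 7 genes lie side by side on the plus strand of chromosome 22, in a cluster of 151.3 kb from 39348746 to 39500072 (hg19), in the order A, B, C, D, F, G, H. All are protein-coding. APOBEC3A (39348746 to 39359189), APOBEC3C (39410262 to 39416357) and APOBEC3H (39493229 to 39500072) are members with a single deaminase domain, and their main transcripts have 5, 4 and 5 exons. APOBEC3B (39378352 to 39388809), APOBEC3D (39417118 to 39429282), APOBEC3F (39436609 to 39451977) and APOBEC3G (39473072 to 39483748) carry a pair of deaminase domains, and their main transcripts have 8, 7, 7 and 8 exons. The members are close copies of each other in part. Of all stretches of 150 bases, the length of 1 read, 8.61% of those in APOBEC3B recurred in another member, most often APOBEC3A. The share was 6.20% for APOBEC3A, 5.20% for APOBEC3D, 4.03% for APOBEC3G, 2.99% for APOBEC3F and 0 for APOBEC3C and APOBEC3H. How such reads were divided is not given in the sources used here. An annotated read-through transcript also spans APOBEC3C and APOBEC3D, and the antisense gene APOBEC3B-AS1 overlaps APOBEC3B. Whether strand was used is not stated, so reads of overlapping genes cannot be told apart. APOBEC3B-AS1 had at most 0.268 FPKM in any sample, and a separate entry for the APOBEC3A_B fusion transcript had at most 0.42.

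Of the 7 members, only APOBEC3H had an entry in the RefSeq promoter table (GRCh38.p14). For that reason only its upstream sequence is shown. It is also the member that was expressed above 1 FPKM and was not called on the deposited scale with all genes in the fit and no sample left out. The 250 bases before its start lie on the plus strand at chr22:39096994-39097243, and the capitals mark each GAAA, the 4-letter core from which interferon-stimulated response elements are built.
APOBEC3H promoter: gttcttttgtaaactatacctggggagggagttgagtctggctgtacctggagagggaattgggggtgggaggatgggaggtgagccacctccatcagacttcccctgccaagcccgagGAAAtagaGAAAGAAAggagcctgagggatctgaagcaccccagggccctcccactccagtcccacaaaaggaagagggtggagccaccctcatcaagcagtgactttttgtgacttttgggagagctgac
On both strands together, GAAA occurred 3 times in this window, all on the plus strand, and 43.6% of 35116 promoters of the same length held it at least 3 times. The paired element GAAANNGAAA, which contains GAAA, was not found in this window and was present in 3.02% of promoters. TTCNNNGAA, the core of the gamma-activated sequence and the same on both strands, was not found either and was present in 6.57%. These matches only describe the letters of this window.

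The deposited values were read as log2(FPKM + 1), a scale inferred from the values. FPKM is a transcript's fragment count divided by its length in kilobases and by the sample's mapped fragments. Levels of different genes are compared below as FPKM, which is per length. Differences between groups are given as log2(FPKM + 1), a scale on which folds of weakly expressed genes come out too small. The relative depth of the samples was estimated from the most common ratio, between pairs of samples, of FPKM values under 0.15. By this estimate it ran from 87.1% to 150.1% of the control mean. The number of reads is not given in the sources used here. A call means a limma adjusted p-value under 0.05, adjusted by the Benjamini-Hochberg method over the 4918 genes. An exact permutation test of 3 samples against 3 cannot give a p-value under 0.1, so none is given. The cell line was checked by marker genes. CSPG4 (26.3 to 49.0 FPKM), AXL (39.9 to 60.3) and EDNRB (4.0 to 6.81), genes of melanoma and neural crest cells, were present in all 12 samples. The pigment-lineage gene DCT stayed at or below 0.384 FPKM, CAPN3 at or below 0.322, and ABCB5 was listed at 0 in 9 samples. Markers of T and NK cells (4 of 7 in the table) and of B cells (3 of 4) were at most 0.212 and 0.577 FPKM. Of epithelial markers (2 of 4), EPCAM was at most 0.102 FPKM and CLDN4 was 7.4 to 11.5.

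All 7 members were above 0 in every sample, and 6 of them, all but APOBEC3A, had a mean of at least 1 FPKM. In control cells APOBEC3C was the highest at 32.2 ± 1.55 FPKM (SD, n = 3), followed by APOBEC3B at 17.5 ± 0.779 and APOBEC3G at 13.3 ± 0.512. APOBEC3F (3.01 ± 0.111), APOBEC3D (2.55 ± 0.458) and APOBEC3H (1.3 ± 0.244) were much lower, and APOBEC3A had 0.152 FPKM. Over all samples, the mean FPKM of APOBEC3C stood at the 87.3rd percentile of the 4918 genes, that of APOBEC3G at 85.7, APOBEC3B at 80.0, APOBEC3F at 55.8, APOBEC3D at 51.2, APOBEC3H at 39.4 and APOBEC3A at 19.9. The family in these cells was thus made up mainly of C, B and G transcripts.

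**Figure D1:**
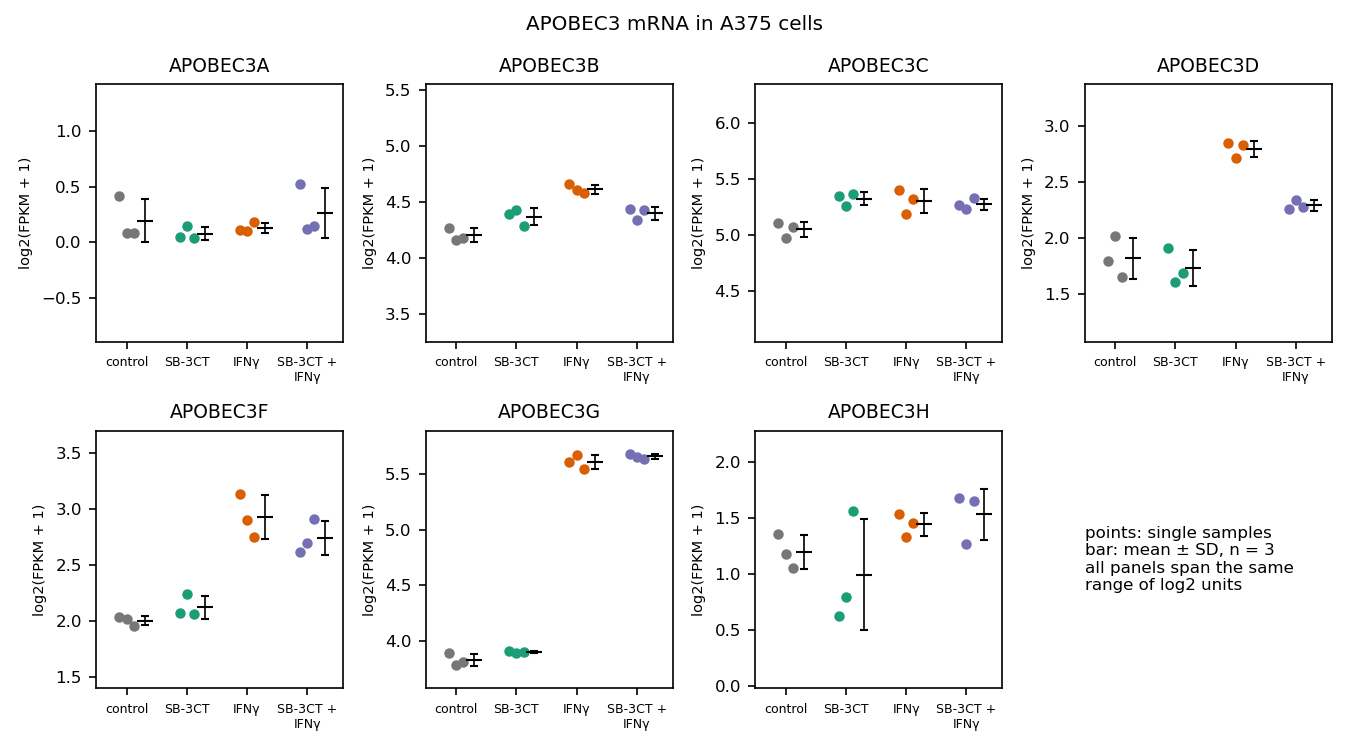
Level of each APOBEC3 gene as log2(FPKM + 1) on the vertical axis, in the 4 groups on the horizontal axis; points are single samples, bars the mean ± SD (n = 3), and every panel spans the same number of log2 units. The 6 samples with IFNγ lie far above the other 6 only for APOBEC3G, and by less for APOBEC3D and APOBEC3F.

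With IFNγ alone, APOBEC3B, APOBEC3C, APOBEC3D, APOBEC3F and APOBEC3G rose, and APOBEC3A and APOBEC3H were not called. That is 5 of 7 members higher and 0 lower, while 8.46% of the 4918 genes were called higher and 11.0% lower in this comparison (higher: 11.0% of the 3177 genes with a mean of at least 1 FPKM). The median difference over the members was 0.41 (log2), against -0.02 over all genes. By size of the difference, APOBEC3G ranked 41st of 4918 genes, APOBEC3D 82nd and APOBEC3F 91st, while APOBEC3B ranked 269th and APOBEC3C 480th. The samples of IFNγ and control did not overlap for the same 5 members, against 15.0% of all genes with every IFNγ sample above every control. In bulk RNA, more cells with a transcript and more transcript per cell cannot be told apart.

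APOBEC3G, the member best known for blocking HIV without Vif, had log2(FPKM + 1) of 3.89, 3.79 and 3.82 in the controls and of 5.61, 5.67 and 5.54 with IFNγ. The groups were tight and far apart, with the lowest IFNγ sample well above the highest control. The mean rose from 13.3 ± 0.512 to 47.7 ± 2.08 FPKM, a ratio of 3.59, and the log2 difference was 1.77 (SE 0.05, limma adjusted p = 5.69e-06).

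APOBEC3D, which also restricts Vif-deficient HIV, had values of 1.79, 2.02 and 1.65 in the controls and 2.85, 2.71 and 2.83 with IFNγ. All 3 IFNγ samples stood above the controls, which were more scattered than they were. The difference was 0.98 on the log2 scale (SE 0.11, limma adjusted p = 0.00219), or 2.55 ± 0.458 to 5.96 ± 0.345 FPKM. APOBEC3F, a partner of APOBEC3G against HIV, had values of 2.04, 2.02 and 1.96 in the controls and 3.14, 2.90 and 2.75 with IFNγ. Here the controls were tight and the IFNγ samples were spread, with no overlap. APOBEC3F was higher by 0.93 (SE 0.11, limma adjusted p = 0.00254), and its mean went from 3.01 ± 0.111 to 6.67 ± 1.05 FPKM.

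APOBEC3B, a nuclear deaminase and a source of tumour mutations, changed less. Its values were 4.27, 4.16 and 4.18 in the controls and 4.66, 4.61 and 4.58 with IFNγ. The ranges were apart, but by a small step for a gene of this level. The mean rose from 17.5 ± 0.779 to 23.5 ± 0.692 FPKM, a log2 difference of 0.41 (SE 0.05, limma adjusted p = 0.00282). With the FPKM of APOBEC3A, the A_B fusion entry and APOBEC3B summed into 1 value, the difference was again 0.41 (limma adjusted p = 0.00303).

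APOBEC3C, a single-domain member with weak action on HIV, had values of 5.11, 4.98 and 5.07 in the controls and 5.40, 5.19 and 5.32 with IFNγ. The lowest IFNγ sample was only just above the highest control. The difference of 0.25 (SE 0.07, limma adjusted p = 0.0471) lost its call in 5 of the 6 fits that left out 1 sample, all but the fit without IFNγ replicate 2, with adjusted p-values from 0.0882 to 0.142, and in limma without the variance trend (adjusted p = 0.0512).

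APOBEC3H, a single-domain member with antiviral and less active natural forms, had values of 1.35, 1.18 and 1.05 in the controls and 1.54, 1.33 and 1.45 with IFNγ. The lowest IFNγ sample fell inside the control range. The difference was 0.25 with a 95% interval from 0.00 to 0.49 (limma adjusted p = 0.144). APOBEC3A, a strong mutator found mainly in myeloid cells and keratinocytes, had 0.42, 0.08 and 0.09 in the controls and 0.11, 0.10 and 0.18 with IFNγ. These values were all near the bottom of the scale, 1 control was the highest of the 6, and the difference of -0.06 was not called (limma adjusted p = 0.695). Of the myeloid markers in the table (2 of 4), CSF1R had a mean of 0.0692 FPKM in the controls and 0.342 with IFNγ and was called higher, and CD14 was not called. The sum of both was 0.0523 to 0.136 FPKM in the controls, 0.0745 to 0.177 with SB-3CT, 0.329 to 0.660 with IFNγ and 0.213 to 0.408 with both agents, and its part in the APOBEC3 differences was not tested.

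**Figure D2:**
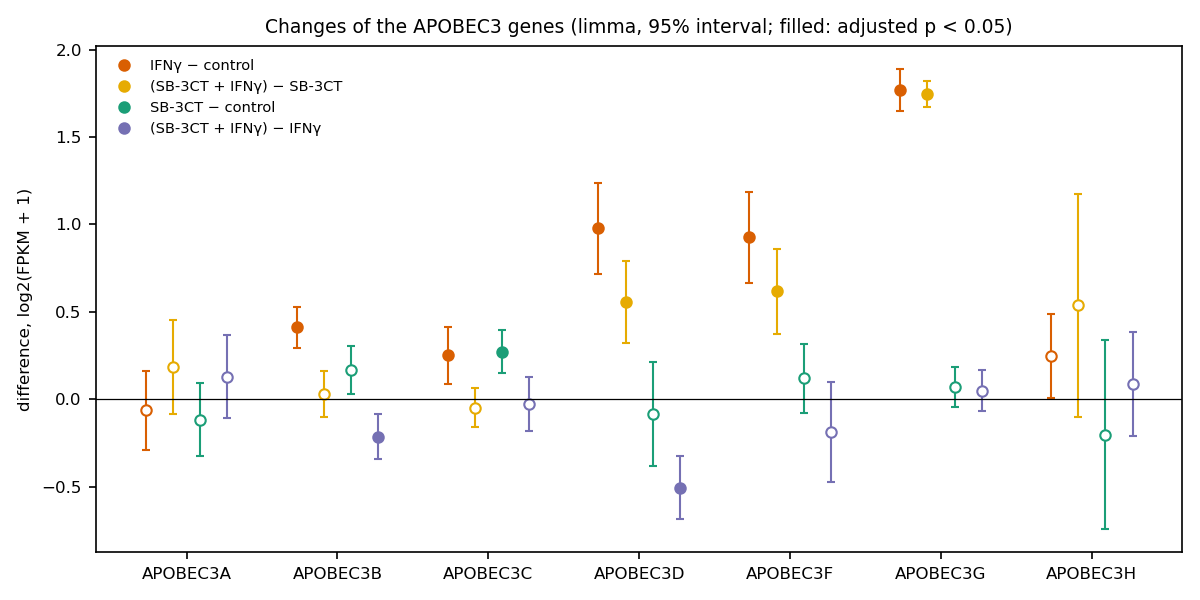
Difference in log2(FPKM + 1) of each APOBEC3 gene (vertical axis) in 4 comparisons, with the 95% interval from limma; filled points have an adjusted p-value under 0.05. APOBEC3G shows nearly the same IFNγ difference without and with SB-3CT (1.77 and 1.75), while the difference of APOBEC3D is 0.98 and 0.56. The gap between the APOBEC3D differences, -0.42, was not called in its own test (limma adjusted p = 0.0628).

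SB-3CT alone moved the family little. APOBEC3C was the 1 member of 7 that rose, none fell, while 5.37% of all genes were called higher and 6.87% lower. Its values with SB-3CT were 5.34, 5.26 and 5.37, all above the control values given above. The mean went from 32.2 ± 1.55 to 39.0 ± 1.62 FPKM, a log2 difference of 0.27 (SE 0.05, limma adjusted p = 0.0238). The call was lost in 5 of the 6 fits that left out 1 sample, all but the fit without SB-3CT replicate 1, with adjusted p-values from 0.0604 to 0.0979.

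The other members had differences with SB-3CT alone from -0.20 (APOBEC3H) to 0.17 (APOBEC3B, limma adjusted p = 0.101). APOBEC3B had 4.39, 4.43 and 4.29, APOBEC3F 2.07, 2.24 and 2.06 and APOBEC3G 3.91, 3.90 and 3.91 with SB-3CT. All of these lay above the controls, as they did for 14.2% of all genes, yet by steps too small to be called. APOBEC3D had 1.92, 1.61 and 1.68, within and just below the control range. APOBEC3H had 0.62, 0.79 and 1.56, the widest spread on the log2 scale of any member in any group, with SB-3CT replicate 3 apart from the other two. APOBEC3A had 0.05, 0.15 and 0.04.

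The response to IFNγ was measured again in cells that also received SB-3CT, with other samples on both sides. APOBEC3D, APOBEC3F and APOBEC3G rose, 3 of 7 members, and none fell, while 7.85% of all genes were called higher and 32.7% lower. The samples of these 3 members did not overlap, as for 9.84% of all genes in the upward direction. APOBEC3G reached 5.68, 5.65 and 5.63 with both agents, far above its 3 SB-3CT values, a log2 difference of 1.75 (SE 0.03, limma adjusted p = 1.17e-06) and an FPKM ratio of 3.53. APOBEC3F had 2.62, 2.70 and 2.91 with both agents, all above SB-3CT alone, a difference of 0.62 (SE 0.10, limma adjusted p = 0.00479). APOBEC3D had 2.26, 2.34 and 2.28, again apart from the SB-3CT samples, and was higher by 0.56 (SE 0.10, limma adjusted p = 0.00634). By size of the difference, APOBEC3G was 37th, APOBEC3F 107th and APOBEC3D 122nd of 4918 genes.

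APOBEC3B and APOBEC3C did not pass the test in this setting. With both agents APOBEC3B had 4.44, 4.34 and 4.43, which overlapped with SB-3CT alone, and a difference of 0.03 (95% interval -0.10 to 0.16, limma adjusted p = 0.715). APOBEC3C had 5.27, 5.23 and 5.32, also overlapping, and a difference of -0.05 (limma adjusted p = 0.451). APOBEC3H had 1.67, 1.27 and 1.65, and its difference of 0.54 was not called (limma adjusted p = 0.155) beside the spread of the SB-3CT samples. Without SB-3CT replicate 3 it was 0.82 (limma adjusted p = 0.0208). APOBEC3A had 0.52, 0.12 and 0.15 with both agents, where replicate 1 stood apart. On another scale, set so that the median gene above 1 FPKM was the same in each sample (median-ratio scaling), APOBEC3B (0.27, limma adjusted p = 0.0204) and APOBEC3C (0.20, limma adjusted p = 0.0303) were called higher with both agents than with SB-3CT alone.

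**Figure D3:**
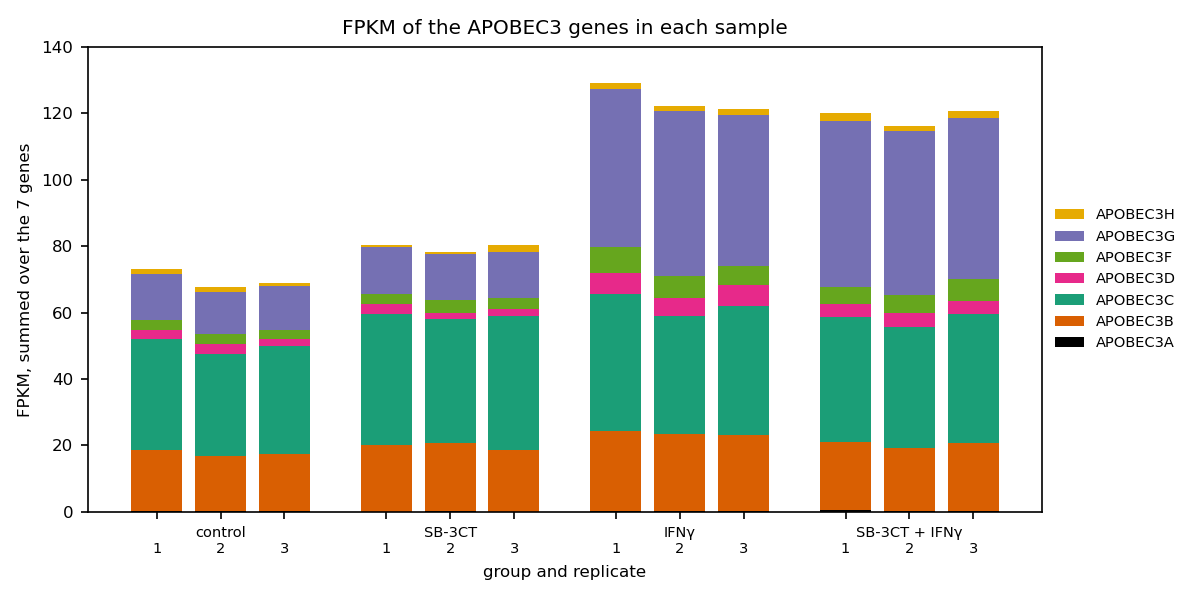
FPKM of the 7 APOBEC3 genes stacked for each of the 12 samples (vertical axis in FPKM, starting at 0; horizontal axis, group and replicate number). The summed level runs from 67.6 to 80.2 FPKM in the samples without IFNγ and from 116 to 129 in those with it, and APOBEC3G takes up most of the added height.

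Summed over the 7 genes, the level was 69.9 ± 2.86 FPKM in the controls, 79.6 ± 1.07 with SB-3CT, 124 ± 4.37 with IFNγ and 119 ± 2.56 with both (SD, n = 3). The make-up of the sum shifted with IFNγ. APOBEC3C held 46.0% ± 1.09 of the summed FPKM in control cells and 49.0% ± 1.40 with SB-3CT alone, but 31.0% ± 1.75 and 31.7% ± 0.562 in the groups with IFNγ. APOBEC3G went the other way, from 19% ± 0.0443 and 17.6% ± 0.148 to 38.4% ± 2.03 and 41.5% ± 1.14. So APOBEC3C was the highest member in the 6 samples without IFNγ and APOBEC3G in the 6 with it. APOBEC3B held 25.0% and 24.8% without IFNγ and 18.9% and 16.9% with it, while APOBEC3D, APOBEC3F, APOBEC3H and APOBEC3A held the rest.

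The comparison of both agents with IFNγ alone asks what SB-3CT did under IFNγ. APOBEC3D and APOBEC3B fell and the other 5 members were not called. This is 2 of 7 lower, where 31.5% of all genes were called lower (42.7% of the genes above 1 FPKM) and 6.41% higher, so the share of members is near that of the table as a whole. The median difference was -0.03 over the members and -0.09 over all genes. APOBEC3D went from 2.85, 2.71 and 2.83 with IFNγ to 2.26, 2.34 and 2.28 with both, every sample of one group below every sample of the other. Its mean fell from 5.96 ± 0.345 to 3.90 ± 0.157 FPKM, a ratio of 0.654, and it fell by 0.51 on the log2 scale (SE 0.08, limma adjusted p = 0.00329). APOBEC3B went from 4.66, 4.61 and 4.58 to 4.44, 4.34 and 4.43, also with no overlap, as for 39.6% of all genes, and fell by 0.21 (SE 0.05, limma adjusted p = 0.0185).

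APOBEC3G and APOBEC3F, the pair of members with the highest correlation across the samples, were not called. The difference of APOBEC3G was 0.05 with a 95% interval from -0.07 to 0.17 (limma adjusted p = 0.497), and the samples of both groups lay in 1 range. That of APOBEC3F was -0.19 with an interval from -0.48 to 0.10 (limma adjusted p = 0.280), again with overlapping samples. APOBEC3C (-0.03), APOBEC3H (0.09) and APOBEC3A (0.13) were not called either.

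These small differences depend on the scale, since the median gene above 1 FPKM was lower by 0.20 (log2) with both agents than with IFNγ on the deposited scale. Over all genes 315 were called higher and 1547 lower, against 763 and 811 after median-ratio scaling and 542 and 714 after quantile normalization. APOBEC3D was lower on all 3 scales, by 0.31 after median-ratio scaling (limma adjusted p = 0.00968) and by 0.20 after quantile normalization (limma adjusted p = 0.0385). APOBEC3B lost its call on both other scales, at 0.01 (limma adjusted p = 0.861) and -0.07 (limma adjusted p = 0.365). It also lost it without replicate 2 of the group with both agents (limma adjusted p = 0.0642). APOBEC3G (0.28, limma adjusted p = 0.0138) and APOBEC3C (0.20, limma adjusted p = 0.0186) were called higher after median-ratio scaling and not after quantile normalization, where they had 0.14 and 0.07. APOBEC3D was therefore the 1 member called lower with SB-3CT under IFNγ on these 3 scales.

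**Figure D4:**
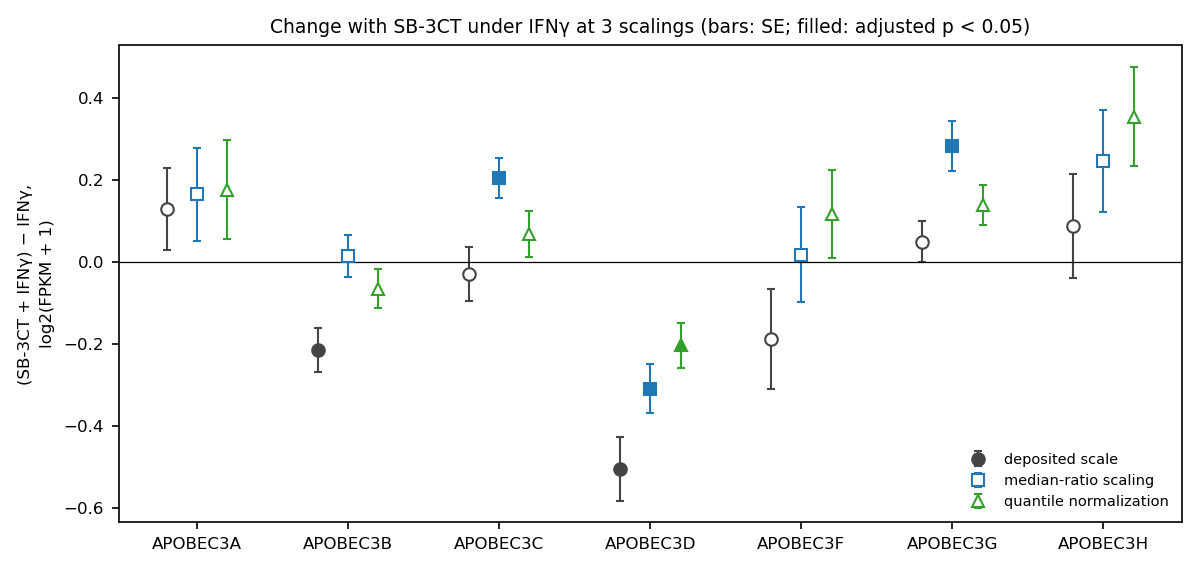
Difference between both agents and IFNγ alone for each APOBEC3 gene on 3 scales, in log2(FPKM + 1) with the SE as bars; filled symbols have an adjusted p-value under 0.05. All 7 genes move upward from the deposited scale. APOBEC3D stays below 0, at -0.51, then -0.31 (median-ratio scaling) and -0.20 (quantile normalization). APOBEC3C and APOBEC3F cross 0 on both other scales, and APOBEC3B only after median-ratio scaling.

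Whether the IFNγ response differed with SB-3CT was tested directly in 1 fit over the 12 samples. The difference of differences (both agents minus IFNγ, less SB-3CT minus control) was negative for APOBEC3B, at -0.38 (SE 0.08, limma adjusted p = 0.00759), and for APOBEC3C, at -0.30 (SE 0.08, limma adjusted p = 0.0271). That is 2 of 7 members called lower, against 17.6% of all genes. For APOBEC3B the differences from control were 0.17 with SB-3CT, 0.41 with IFNγ and 0.20 with both. For APOBEC3C they were 0.27, 0.25 and 0.22. For APOBEC3D the value was -0.42 (limma adjusted p = 0.0628) and for APOBEC3F -0.31 (limma adjusted p = 0.166), neither called. For APOBEC3G it was -0.02 with a 95% interval from -0.16 to 0.11 (limma adjusted p = 0.836), small beside its IFNγ response of 1.77. APOBEC3A (0.25) and APOBEC3H (0.29) were not called. After median-ratio scaling neither APOBEC3B (-0.18, limma adjusted p = 0.143) nor APOBEC3C (-0.10, limma adjusted p = 0.382) was called. After quantile normalization APOBEC3B was (-0.26, limma adjusted p = 0.0359) and APOBEC3C was not (-0.18, limma adjusted p = 0.111).

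The order of the 4 groups was thus not the same for all genes, and some neighbouring groups were not called apart. On the deposited scale APOBEC3G had control and SB-3CT lowest, not called apart (limma adjusted p = 0.373), and IFNγ and both agents highest, also not called apart (0.497 by the same test). After median-ratio scaling it was called higher with both agents than with IFNγ, as given above. APOBEC3F had control and SB-3CT lowest and not called apart (limma adjusted p = 0.393), then both agents and IFNγ, also not called apart (0.280 by the same test). APOBEC3D had 3 levels: SB-3CT and control together, then both agents (0.47 above control, limma adjusted p = 0.0105), then IFNγ. On the deposited scale APOBEC3B had control lowest and IFNγ highest, with SB-3CT and both agents between them at 4.37 and 4.40 in mean log2(FPKM + 1). Those middle groups were not called apart, and neither were control and SB-3CT (limma adjusted p = 0.101). APOBEC3C had control at the bottom (5.05) on that scale, and the other 3 groups, from 5.27 to 5.32, were not called apart from their neighbours. After median-ratio scaling both orders changed, as APOBEC3B and APOBEC3C were called higher with both agents than with SB-3CT. There APOBEC3C was also called higher with both agents than with IFNγ, and APOBEC3B was not called apart between those groups. The means of APOBEC3H ran from 0.99 with SB-3CT to 1.53 with both agents. No pair of groups was called for it on the deposited scale with all genes in the fit and no sample left out. With only genes above 1 FPKM in the fit, APOBEC3H was called higher with both agents than in the controls (limma adjusted p = 0.0241) and than with SB-3CT (limma adjusted p = 0.0415). Against control, cells with both agents had 5 members higher (APOBEC3B, APOBEC3C, APOBEC3D, APOBEC3F and APOBEC3G), beside 9.84% of all genes. IFNγ against SB-3CT had 4 (APOBEC3B, APOBEC3D, APOBEC3F and APOBEC3G), beside 11.1%. These comparisons share samples with those above and add no independent evidence.

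Among the 6 members above 1 FPKM, across the 12 samples, the closest pair was APOBEC3F and APOBEC3G (Pearson r = 0.94), then APOBEC3D and APOBEC3F (0.88) and APOBEC3D and APOBEC3G (0.86). APOBEC3H had r from 0.23 to 0.62 with the other members, and APOBEC3C from 0.23 to 0.66. These are descriptions of samples that share their groups and have no p-value. Likeness was searched only among the 3177 genes above 1 FPKM analysed here, with symbols from A1BG to FAM46B. The 5 most like APOBEC3G were CD7, CXCL10, C3, CTSS and C1S, at r from 0.9969 to 0.9984. For APOBEC3F they were CD274, which encodes PD-L1, then APOL3, APOL6, CSF1 and APOL1 (0.96 to 0.97). For APOBEC3D they included CALCOCO2, ARNTL2, BTN3A1 and CA13 (all 0.97). APOBEC3B was most like ENG, DENND3, BCL3, CLIP2 and FAM20C (0.93 to 0.94). APOBEC3C was most like C1orf198 (0.96), followed by DFNA5, CCND3, CSRNP1 and CAMK2N1. The best match of APOBEC3H, CARD8-AS1, had an r of only 0.81, and ACSS1, ADCK4, C11orf84 and C19orf38 followed.

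The APOBEC3 genes were set beside other antiviral genes linked to interferon, of which 12 of 14 listed were in the table (CGAS and CH25H were not analysed here). They were listed for that link and with earlier results of these data known, so their rise with IFNγ is not an independent result. All 12 rose with IFNγ, with a median log2 difference of 2.39, and all 12 rose with IFNγ in the presence of SB-3CT, with a median of 1.77. APOBEC3G, at 1.77 in the first comparison, was below the median of that list and above ADAR (1.31), the deaminase that edits adenosine in double-stranded RNA, and EIF2AK2 (1.21), the RNA-activated kinase PKR. DDX58, the RNA sensor RIG-I, rose by 3.11, and BST2, which tethers budding virus particles, by 6.55. With SB-3CT under IFNγ 10 of the 12 fell and 1 rose, with a median of -0.64, against the 2 of 7 APOBEC3 members and 31.5% of all genes that fell. The gene that rose was CXCL10, a chemokine, by 0.44. After median-ratio scaling 9 fell and 1 rose, and after quantile normalization 8 fell and 1 rose. DDX58 fell by 0.98 and EIF2AK2 by 0.93 on the deposited scale, more than any APOBEC3 gene.

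**Figure D5:**
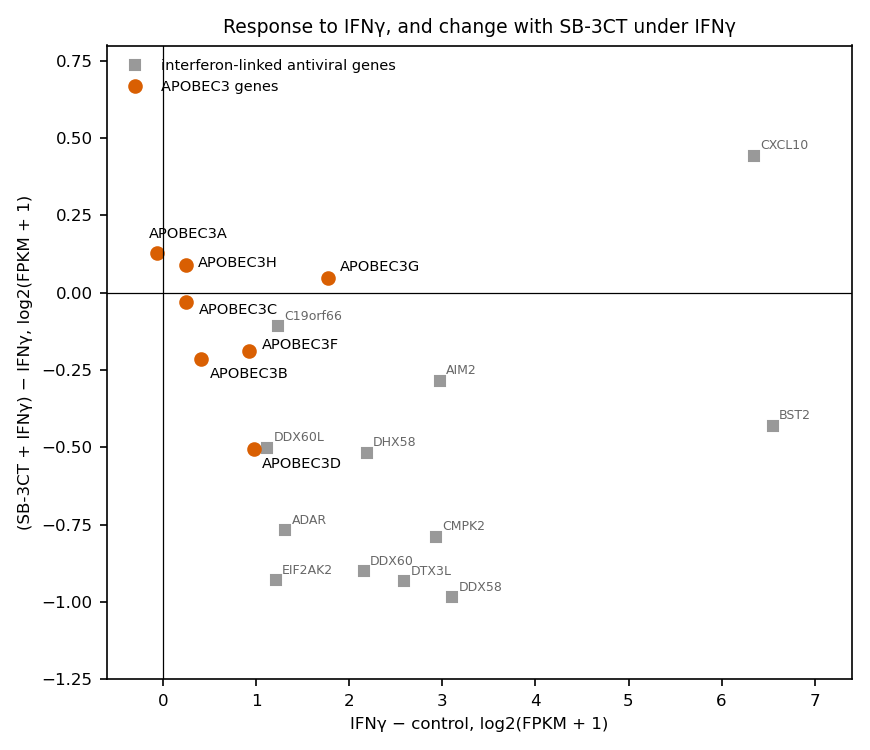
Each point is a gene, with its difference between IFNγ and control on the horizontal axis and its difference between both agents and IFNγ on the vertical axis, both in log2(FPKM + 1); the 2 axes share the IFNγ samples. APOBEC3G lies close to 0 on the vertical axis at 1.77 on the horizontal, while 10 of the 12 antiviral genes lie at or below -0.28.

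Other deaminases were counted in the same comparisons, with the shares of all genes beside them. Of 17 enzymes or relatives that act on nucleosides, nucleotides or RNA, 16 were in the table. With IFNγ 1 rose, ADAR, which also stands in the antiviral list, and 1 fell, AMPD2, an AMP deaminase (-0.29, limma adjusted p = 0.0207). Of all genes 8.46% were called higher and 11.0% lower there. With SB-3CT alone AMPD2 rose by 0.22 (limma adjusted p = 0.0289) and no other was called, beside 5.37% of all genes higher and 6.87% lower. With SB-3CT under IFNγ ADAR fell by 0.77 and ADAT1, a tRNA adenosine deaminase, by 0.63, and none rose. Of all genes 31.5% were called lower and 6.41% higher in this comparison. On the median-ratio scale 3 rose and 2 fell in it, beside 763 and 811 of the 4918 genes. Both agents against SB-3CT had 1 of the 16 higher and 4 lower, beside 7.85% and 32.7% of all genes. Both agents against control had 2 higher and 5 lower, beside 484 and 1967 of the 4918 genes. A1CF, a cofactor of the related deaminase APOBEC1, had a group mean of at most 0.0016 FPKM and was not called. APOBEC1, APOBEC2 and APOBEC4 were not analysed here.

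Genes of dividing cells were counted because APOBEC3B is known to be expressed in such cells. Of 20 listed, 3 rose and 1 fell with IFNγ, beside 8.46% and 11.0% of all genes. With SB-3CT 3 rose and 4 fell, beside 5.37% and 6.87%. With SB-3CT under IFNγ 1 rose and 13 fell, beside 6.41% and 31.5%. On the median-ratio scale the last count was 4 higher and 9 lower. In that comparison, in which APOBEC3B fell, 42.7% of all genes above 1 FPKM were called lower, and the part of proliferation in the APOBEC3B result was not tested.

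Most genes near the cluster were not called with IFNγ. Of 9 genes of the table within 500 kb, APOBEC3B-AS1 aside, 1 was called higher with IFNγ (CACNA1I, a calcium channel gene at a mean of 0.056 FPKM over all samples) and 1 lower. The lower one was CBX6, a Polycomb gene on the minus strand whose nearer edge lies 80492 bases before APOBEC3A, at -0.32 (limma adjusted p = 0.0167). CBX7, another Polycomb gene on the minus strand, has its nearer edge 16100 bases after APOBEC3H and was not called (-0.08). Over the whole table the shares were 8.46% higher and 11.0% lower. With IFNγ in cells given SB-3CT, 0 of the 9 were higher and 4 were lower (DDX17, CBY1, CBX6 and CBX7), beside 7.85% and 32.7% of all genes. With SB-3CT under IFNγ ATF4, a stress-response factor, was higher by 0.21 and CBX6 (-0.27) and DDX17 (-0.79) were lower, beside 6.41% and 31.5% of all genes. Other neighbours, with symbols after FAM46B, were not analysed here.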

How the data were processed

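RNA of 12 samples of A375 cells was sequenced with 150-base paired-end reads. The authors aligned reads with HISAT2 2.0.5 to hg19 and calculated FPKM with StringTie 1.3.3 (versions and build from the submitters' processing notes). The values they deposited were read as log2(FPKM + 1), a scale inferred from the values and not checked against untransformed FPKM. They reach at most 12.16 and on this reading give 121928 to 129692 FPKM in sum per sample. Because the planned tests already took log2(FPKM + 1), no logarithm was added. Only genes from A1BG to FAM46B were analysed here. 0 columns were unused. Absolute depth is unknown, so no counting interval is given.

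Each comparison was fitted in limma 3.58.1 (R 4.3.3) by lmFit and trended eBayes, without pairing, on its own 3 + 3 samples, or on all 12 for the difference of differences. Adjusted p-values cover all 4918 genes. Gene positions came from GENCODE release 44 mapped to GRCh37. On simulated data, 98.5% of 200 genes changed by 1 (log2) were recovered for IFNγ against control, with 7 other calls, and 95.5%, with 9 others, for the difference of differences. The simulation held no smaller changes and no shift of the whole table. It therefore cannot show how well smaller differences, or differences under such a shift, are called. The members and lists were chosen with earlier results of these data known. Named were all 7 members, genes of the lists that a result turned on, genes within 500 kb, and the 5 genes most like each member above 1 FPKM. Some items under this rule are not reported here. The alternatives were a pseudocount of 0.1, a filter at a mean of 1 FPKM, median-ratio scaling, quantile normalization, all groups in 1 fit, the replicate block, eBayes without trend or robust, a fold change over 1.5 with unadjusted p under 0.05, and each sample left out. Summing APOBEC3A, APOBEC3A_B and APOBEC3B was added after seeing the data.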

Additional observations from a re-analysis of the deposited data

Results flagged for a closer look

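For 2 members the effect of SB-3CT was not the same in the presence and absence of IFNγ, by the test of that difference itself (limma over the 12 samples). For APOBEC3B it was 0.17 without and -0.21 with IFNγ, a difference of -0.38 (limma adjusted p = 0.00759), which was called in each of the 12 fits that left out 1 sample. For APOBEC3C it was 0.27 without and -0.03 with IFNγ, a difference of -0.30 (limma adjusted p = 0.0271), which lost its call in 6 of those fits (adjusted p 0.0568 to 0.0699). The median difference of differences over the genes above 1 FPKM was -0.19 on this scale, and after median-ratio scaling neither gene was called. The cause was not tested.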

How the results depend on the processing

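Of 49 results for single members, 22 were called, and 15 of these were called in the same direction under every alternative fitted for single members, which leaves out the fold rule below. Among them were APOBEC3G, APOBEC3D and APOBEC3F with IFNγ, with and without SB-3CT, and APOBEC3D with SB-3CT under IFNγ. The rule was a fold change over 1.5 in FPKM + 1, with unadjusted p under 0.05. It lost APOBEC3D with both agents against IFNγ, control and SB-3CT, at FPKM ratios of 0.654, 1.53 and 1.66. Members called were 3 with IFNγ (5 in the report), 0 with SB-3CT (1) and 0 with SB-3CT under IFNγ (2). Both agents gave 2 against control (5) and 2 against SB-3CT (3), the difference of differences 0 (2). Median-ratio scaling gave 5 for both agents against SB-3CT (3) and 0 for the difference of differences. Quantile normalization gave 1 for SB-3CT under IFNγ and 1 for the difference of differences. With 1 sample left out the counts ran from 4 to 5 for IFNγ, 0 to 1 for SB-3CT, 1 to 2 for SB-3CT under IFNγ, 3 to 4 for both agents against SB-3CT, 4 to 6 for both agents against control, 3 to 4 for IFNγ against SB-3CT and 1 to 3 for the difference of differences.

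Directions turned as follows, and the cause was not tested. For SB-3CT under IFNγ, median-ratio scaling gave APOBEC3B 0.0146, APOBEC3C 0.205 and APOBEC3F 0.0179, and quantile normalization gave APOBEC3C 0.0678 and APOBEC3F 0.118. For both agents against SB-3CT, APOBEC3C was 0.195 and 0.0691 on these scales, and for IFNγ against SB-3CT it was 0.0013 after quantile normalization. The difference of differences of APOBEC3G was 0.182 and 0.0467 on these scales. With 1 sample left out, the log2 difference of APOBEC3A ran from -0.121 to 0.0468 for IFNγ, from -2e-04 to 0.202 for SB-3CT under IFNγ and from -0.0642 to 0.176 for both agents against control. That of APOBEC3B ran from -0.0128 to 0.0608 for both agents against SB-3CT, and that of APOBEC3D from -0.174 to 0.0138 for SB-3CT. That of APOBEC3C ran from -0.0871 to 0.02 for SB-3CT under IFNγ and from -0.0683 to 0.0388 for IFNγ against SB-3CT, and the difference of differences of APOBEC3G from -0.0541 to 0.0076. Of these, only APOBEC3B for SB-3CT under IFNγ was called on the deposited scale, and only APOBEC3C after median-ratio scaling was called in the other direction.

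APOBEC3B against control with both agents lost its call in 3 fits that left out 1 sample (adjusted p 0.0521 to 0.0563), and with IFNγ against SB-3CT in 4 (0.0502 to 0.0782). APOBEC3H was called for both agents against control on both other scales (0.51 and 0.57) and with the filter at 1 FPKM (adjusted p = 0.0241), which also called it for both agents against SB-3CT (adjusted p = 0.0415), and APOBEC3D for the difference of differences with the filter at 1 FPKM (adjusted p = 0.0299). For both agents against SB-3CT, against control and for the difference of differences, 386, 484 and 233 genes were called higher and 1608, 1967 and 866 lower, beside 657, 1016 and 382 higher and 547, 1006 and 275 lower after median-ratio scaling. With the replicate number as a block the counts of members called were 5 for IFNγ, 1 for SB-3CT, 2 for SB-3CT under IFNγ, 3 for both agents against SB-3CT, 5 against control, 4 for IFNγ against SB-3CT and 2 for the difference of differences, and no call of a member changed. Over all genes the block gave 259 calls for SB-3CT against control, beside 602 without it. Samples with the same number had correlations from -0.39 to 0.33 after removal of group means. In 0 of 6 comparisons did every sample correlate best with its own number. For IFNγ against control, SB-3CT against control and IFNγ against SB-3CT, 4 of the 6 samples did. Whether samples with the same number share more than that number cannot be told from these values.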
